A study of Mus musculus with 28 samples.

Results

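Striatal gene expression was compared between mice that carry 1 copy of an A/J chromosome segment and littermates with none, on 12 of the 28 arrays of the series. The 12 arrays were taken by their titles and form batch 1. The 6 heterozygous congenic mice were B6.A/J animals that are heterozygous for B6 and A/J alleles in the segment. The 6 B6 wildtype littermates were homozygous for B6 alleles there and C57BL/6J (B6) elsewhere. Each group held 3 females and 3 males of 41 to 68 days of age, all drug-naive and housed with littermates of the same sex. Heterozygous mouse 5, at 52 days, had no B6 mouse of its age, and the labels do not say which mice shared a litter. Each array held RNA from the left and right striatal punches of 1 mouse, so a lower value may come from fewer cells of a type or from less RNA per cell, which cannot be told apart. The other 16 arrays, from 8 homozygous congenic mice and 8 B6 wildtype controls of batch 2, serve here only to set 1 copy beside 2 copies. They were not littermates of each other, and the homozygous mice were 52 to 57 days old against 61 to 63 days for the controls.

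A congenic strain carries a stretch of one inbred strain's chromosome on the background of another, so that a trait mapped to that stretch can be studied apart from the rest of the genome. The segment spans 84 to 96 Mb in the labels, is on chromosome 11 from knowledge of the study, and was linked there to methamphetamine sensitivity. In a heterozygote, a variant that alters a gene from its own chromosome copy changes only the RNA from that copy, whereas a diffusible factor acts on both copies. The striatum consists mainly of spiny projection neurons that use GABA and respond to dopamine through D1 or D2 receptors. It also holds a few interneuron classes, and lies beside the cortex, the septum, the pallidum and the ventricle with its choroid plexus. By gene order there are 264 reference genes in the segment, and 132 of them were measured by an array cluster with a single gene symbol. Over the genome 19938 genes were tested.

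The arrays of both groups were alike in level and spread. Array medians lay between 7.48 and 7.52 log2, which the normalization and batch adjustment of the deposited values favour. The median SD over genes was 0.0946 in heterozygous mice and 0.0961 in littermates. By Xist, expressed from the inactive X of females, and the Y-linked Eif2s3y, 12 of 12 arrays matched their labelled sex. Spiny neuron genes marked the tissue as labelled, with Drd2 between 11.56 and 11.78 log2 in heterozygous mice and between 11.53 and 11.76 in littermates.

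No gene passed the adjusted threshold of 0.05 with 1 A/J copy. By limma with sex as a term, 0 of 19938 genes (0%) had a Benjamini-Hochberg adjusted p under 0.05, and the smallest was 0.617. An unadjusted p under 0.05 was reached by 877 genes (4.4%), where chance alone would give 996.9. Of these, 511 (2.56%) were higher and 366 (1.84%) lower in heterozygous mice. Among genes above the median level the split turned to 140 higher and 249 lower. All values of one group lay above all values of the other for 31 genes (0.155%), 19 higher (0.0953%) and 12 lower (0.0602%) in heterozygous mice. Every gene described here therefore missed the threshold in this comparison, with an adjusted p of 0.617 for Syna and 0.999 for the 19 leading segment genes, and differences are given with their standard error (SE).

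Within the segment, 19 of 132 genes (14.4%) had an unadjusted p under 0.05, against the 4.4% over all genes. In heterozygous mice 10 of the 19 were higher and 9 lower, and the median difference over the 132 genes was 0.01 log2. The differences were small. Over the segment 106 genes differed by no more than 0.1 log2 in size, 5 differed by 0.2 or more, and the 95% interval lay within 0.5 log2 in size for all 132. The leading genes were Cuedc1 and Acsf2, higher in heterozygous mice, and Brip1os and Dgke, lower. Their starts are shown as sequence before their values.

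The promoter windows of RefSeq on GRCm38.p6 hold 250 bases before and 50 after an annotated start, and match 3 of these 4 leading genes. They show what lies at the starts of the genes with the smallest p in the segment. Capitals mark the GC box GGGCGG and the CCAAT box CCAAT on either strand, so that they also read CCGCCC and ATTGG, and neighbouring GC boxes of Acsf2 share a base. The windows are chr11:88098896-88099195 on the plus strand for Cuedc1, the first of its annotated starts, chr11:94601737-94602036 on the minus strand for Acsf2 and chr11:89060699-89060998 on the minus strand for Dgke. The Acsf2 window lies inside the gene record and does not reach its outer end at 94602139.
Cuedc1: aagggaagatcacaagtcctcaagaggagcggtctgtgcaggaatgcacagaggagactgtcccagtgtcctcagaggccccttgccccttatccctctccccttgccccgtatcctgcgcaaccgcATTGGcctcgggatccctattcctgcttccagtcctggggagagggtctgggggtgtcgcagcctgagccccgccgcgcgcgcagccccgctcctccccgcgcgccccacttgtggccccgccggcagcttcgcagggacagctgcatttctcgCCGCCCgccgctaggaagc
Acsf2: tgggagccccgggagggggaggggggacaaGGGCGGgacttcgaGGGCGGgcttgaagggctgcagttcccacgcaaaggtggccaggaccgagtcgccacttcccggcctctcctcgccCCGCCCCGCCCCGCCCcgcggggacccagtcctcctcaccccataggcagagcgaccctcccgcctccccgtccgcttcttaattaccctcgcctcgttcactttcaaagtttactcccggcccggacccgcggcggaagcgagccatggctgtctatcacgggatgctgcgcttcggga
Dgke: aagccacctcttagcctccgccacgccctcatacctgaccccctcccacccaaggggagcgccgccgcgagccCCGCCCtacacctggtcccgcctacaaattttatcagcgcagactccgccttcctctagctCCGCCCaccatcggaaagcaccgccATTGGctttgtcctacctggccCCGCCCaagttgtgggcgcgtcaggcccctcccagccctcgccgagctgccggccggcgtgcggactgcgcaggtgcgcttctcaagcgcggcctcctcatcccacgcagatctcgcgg
The GC box occurs 1 time in the Cuedc1 window, 5 times in that of Acsf2 and 3 times in that of Dgke, and 35.7% of 32851 promoter windows hold it. The CCAAT box occurs once each for Cuedc1 and Dgke and in 37.4% of all windows. The letters TATAAA, found in 13.6% of all windows, are in none of these windows. The windows hold 22, 29 and 29 CG dinucleotides in the same order, against a median of 7 over all windows, 23.1% of which hold 22 or more. The Dgke window also contains the annotated start of Dgkeos, a non-coding RNA gene that runs the other way.

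Cuedc1 encodes a protein with a CUE domain, a fold that binds ubiquitin. It was at 8.32, 8.26, 8.31, 8.17, 8.32 and 8.22 log2 in heterozygous mice 1 to 6, against 8.07, 8.02, 7.92, 7.89, 8.18 and 7.86 in littermates 1 to 6. All heterozygous mice but mouse 4 lay above all littermates, and mouse 4 was just below littermate 5. The difference was 0.28 log2 (SE 0.058), 1.21-fold (95% interval 1.11 to 1.32, limma adjusted p = 0.999). It was 0.20 in females and 0.35 in males.

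Acsf2 belongs to a family of acyl-CoA synthetases, which activate fatty acids in mitochondria. Its values were 7.86, 7.84, 8.14, 7.90, 7.83 and 7.99 log2 in heterozygous mice, against 7.55, 7.66, 7.63, 7.57, 7.81 and 7.67 in littermates. The groups did not overlap, with heterozygous mouse 3 the highest. The difference was 0.28 log2 (SE 0.061, 1.21-fold, 95% interval 1.11 to 1.32, limma adjusted p = 0.999). A further cluster that carries the symbol, whose ID is not among those of the segment, gave 0.36 log2, at 7.82 in heterozygous mice and 7.46 in littermates.

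Brip1os is the RNA gene on the strand opposite Brip1, a helicase of DNA repair. It was at 6.95, 6.97, 7.02, 6.85, 7.06 and 7.02 log2 in heterozygous mice, against 7.17, 7.07, 7.22, 7.18, 7.33 and 7.36 in littermates. The groups did not overlap, though littermate 2 lay within 0.01 of the highest heterozygous mouse. The difference was -0.25 log2 (SE 0.057), 0.844-fold (95% interval 0.777 to 0.917, limma adjusted p = 0.999). Brip1 itself was at 5.24 log2 in both groups. Acsf2 and Brip1os were the 2 of 132 segment genes without overlap, 1 in each direction, against 0.155% of all genes.

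Dgke encodes diacylglycerol kinase epsilon, which turns diacylglycerol, a lipid messenger, into phosphatidic acid. It was at 8.55, 8.33, 8.54, 8.40, 8.47 and 8.44 log2 in heterozygous mice, against 8.82, 8.67, 8.73, 8.47, 8.80 and 8.68 in littermates. Littermate 4 lay among the heterozygous mice and the other 5 lay above all of them. The difference was -0.24 log2 (SE 0.058, 0.846-fold, limma adjusted p = 0.999). Dgkeos, whose start lies in the printed Dgke window, differed by -0.06 log2 (SE 0.066).

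**Figure D1:**
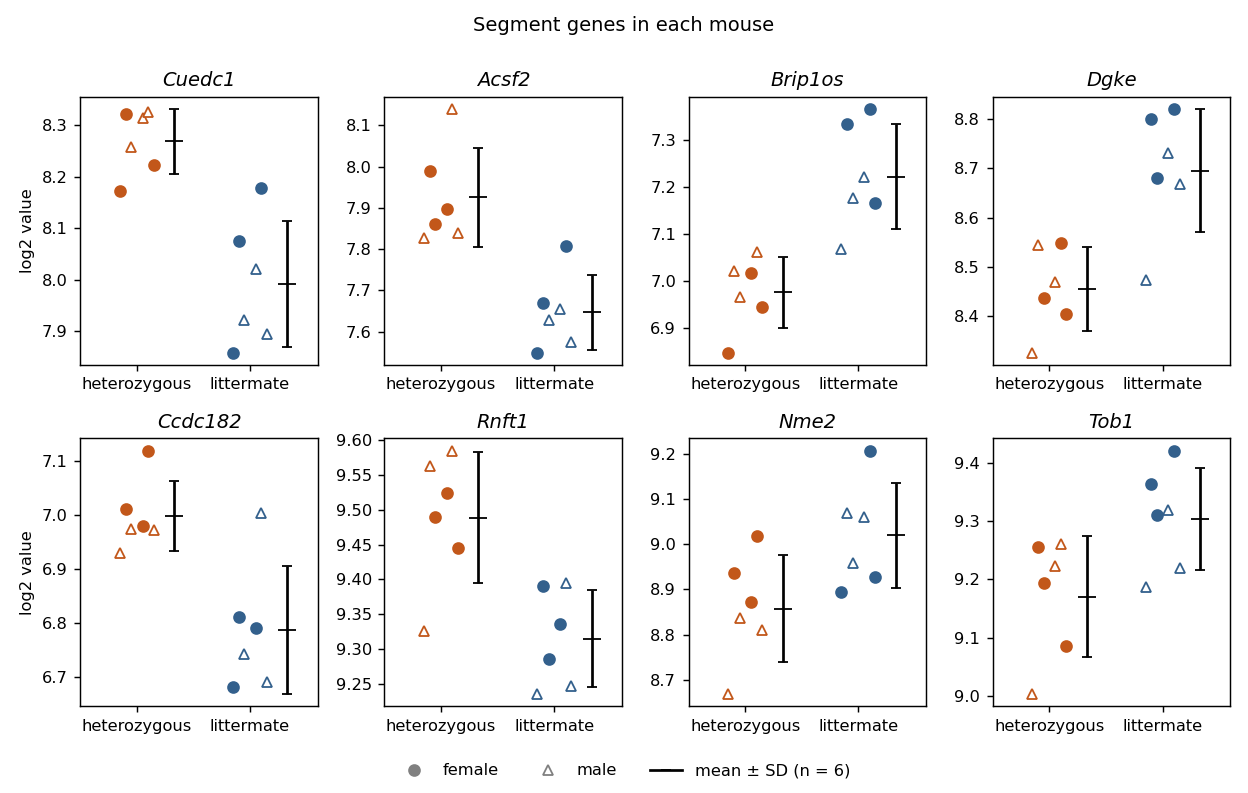
Log2 values of 8 segment genes in each of the 6 heterozygous mice (left in each panel) and the 6 littermates (right), females as filled circles and males as open triangles, with mean and SD beside each group and a separate vertical scale per gene. Acsf2 and Brip1os show groups that do not overlap, and the other panels show 1 or more mice of one group among the other.

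Rnft1 encodes a RING finger protein of the membrane. Its lowest, median and highest values were 9.33, 9.51 and 9.58 log2 in heterozygous mice, against 9.24, 9.31 and 9.39 in littermates. Heterozygous mouse 2 was the only one within the range of the littermates. The difference was 0.17 log2 (SE 0.054). Rnf43, a ubiquitin ligase that removes Wnt receptors from the cell surface, was 0.11 log2 higher in heterozygous mice (SE 0.054), at the edge of the unadjusted threshold.

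Mrps23, of the small subunit of the mitochondrial ribosome, ranged from 8.89 to 9.02 log2 in heterozygous mice, against 8.95 to 9.16 in littermates, a difference of -0.12 (SE 0.049). Mrpl27, of its large subunit, was between 9.27 and 9.44 in heterozygous mice, against 9.32 to 9.54 in littermates, a difference of -0.12 (SE 0.051). Ranges overlapped for both. The other cluster of Mrpl27 gave -0.12 as well, and by its ID this other cluster, not the brighter one used here, sits among the clusters of the segment.

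Nme2, a nucleoside diphosphate kinase, was at a median of 8.85 log2 in heterozygous mice, against 9.01 in littermates, a difference of -0.16 (SE 0.062). Nme1, its close relative and neighbour, differed by 0.04 log2 (SE 0.061), and probes shared between so similar genes cannot be told apart in these values. Tob1, which restrains cell division as a member of the BTG/Tob family, ranged from 9.00 to 9.26 in heterozygous mice, against 9.19 to 9.42 in littermates, and differed by -0.13 (SE 0.056). All 6 heterozygous mice were below the littermate mean for both Nme2 and Tob1. Tubd1, delta-tubulin, was higher by 0.12 log2 (SE 0.051), with heterozygous mouse 3 below the littermate mean.

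Ccdc182, a coiled-coil gene, ranged from 6.93 to 7.12 log2 in heterozygous mice, against 6.68 to 7.00 in littermates. Only littermate 2 lay among the heterozygous mice, and the difference was 0.21 log2 (SE 0.058). Ankrd40, an ankyrin repeat gene, was higher by 0.14 log2 (SE 0.051) and Spata20 by 0.13 (SE 0.052). Coil, which encodes the marker protein of Cajal bodies in the nucleus, was higher by 0.12 log2 (SE 0.055) and the gene A430060F13Rik by 0.11 (SE 0.049). Dhrs11, a short-chain dehydrogenase, was lower by 0.14 log2 (SE 0.056). Ppm1e, a phosphatase that acts on calmodulin-dependent kinases, had a difference of -0.16 (SE 0.072) and Rad51c, of homologous recombination, one of -0.12 (SE 0.053). Coil, Ppm1e, Rad51c and Rnf43, like the microRNA genes, Brip1 and Dgkeos, are not named by the rule and were picked with their values known. The segment's microRNA genes Mir142 and Mir301 differed by 0.03 and 0.02 log2 (SE 0.071 and 0.078).

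**Figure D2:**
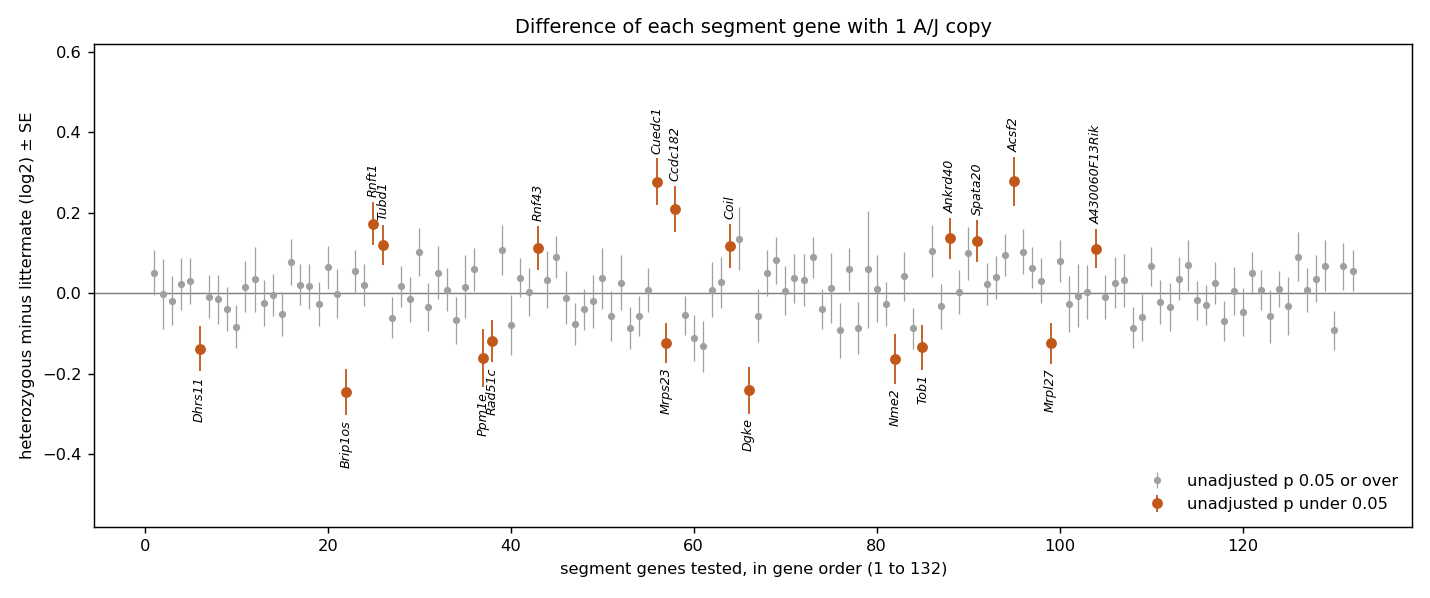
Difference between heterozygous mice and littermates in log2 (vertical axis, bars ± SE) for the 132 segment genes in gene order (horizontal axis). The 19 genes at an unadjusted p under 0.05 are named, lie at many places along the segment, and point up in 10 cases and down in 9.

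Outside the borders of the segment, 2 of 23 genes on the proximal flank (8.70%) had an unadjusted p under 0.05, against 4.4% of all genes. They were Dusp14, a phosphatase gene, at 0.18 log2 (SE 0.078) and Wfdc18 at 0.16 (SE 0.073). On the distal flank there were 2 of 27 (7.41%), the homeobox gene Hoxb13 at -0.12 (SE 0.051) and the transcription factor gene Sp6 at 0.13 (SE 0.061). Copz2, a coatomer subunit of the distal flank, was at a median of 7.75 log2 in heterozygous mice, against 7.86 in littermates, a difference of -0.11 (SE 0.060). On the rest of chromosome 11 the count was 52 of 1384 genes (3.76%).

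Array probes over known coding variants had been masked by the authors, within the segment unevenly between the strands. Cluster IDs follow the strands in 2 runs along the segment. By this order 57 of the 120 masked probesets lie in the plus-strand run and 1, in Cltc, in the minus-strand run. The other 62 lie elsewhere, 13 of them in flank genes, among which is Hoxb13. This placement by ID was not checked against a probe map. In the plus-strand run 29 of 60 genes held a masked probe, and 11 of the 60 had an unadjusted p under 0.05, 8 higher and 3 lower in heterozygous mice. In the minus-strand run 1 of 68 genes held a masked probe, and 7 of the 68 had such a p, 2 higher and 5 lower. Of the 30 segment genes with a masked probe 5 were at an unadjusted p under 0.05 (16.7%), against 14 of the 102 without one (13.7%). Cuedc1, Ccdc182, Mrps23, Tob1 and Coil are those 5, whereas Acsf2, Brip1os and Dgke held no masked probe. The part that unmasked variants under probes may have in these differences was not tested.

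One copy was next set beside 2 copies, as homozygous mice minus B6 controls, from a fit of all 28 arrays. The 2 comparisons share no arrays, but their batches had been adjusted together by the authors. Of the 19 leading segment genes, 15 (78.9%) had the same sign with 2 copies, against 49.9% of all genes. The same sign and an unadjusted p under 0.05 with 2 copies were found for 8 (42.1%), against 2.98% of all genes. With either sign, 6.23% of all genes had such a p. Of the 858 genes outside the segment with an unadjusted p under 0.05 with 1 copy, 412 (48.0%) had the same sign with 2 copies, and 34 (3.96%) the same sign and such a p. Over the 132 segment genes the correlation of the 2 differences was 0.55 as a description, and over all genes -0.02. The 8 genes were Cuedc1, Tubd1 (higher), Brip1os, Dgke, Nme2, Mrps23, Mrpl27 and Tob1 (lower).

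B6 control 1 had the highest value in batch 2 of the liver transcript fibrinogen gamma (Fgg), at 11.23 log2. It was the upper end of a wide spread, from 6.47 to 10.49 in the other controls and 7.11 to 10.01 in homozygous mice. Leaving out control 1 was added after seeing the data. Without it the count of 8 became 10 of 19, with Acsf2 and Rnft1 added, and 15 of the 19 had the same sign, with Dhrs11 no longer and Rnf43 now among them. Over all genes without control 1, 52.2% had the same sign, and 3.2% the same sign and an unadjusted p under 0.05. Acsf2 was at 8.60 in that array and between 7.52 and 7.86 in the other controls. Its 2-copy difference was 0.05 log2 (SE 0.106) with that array and 0.17 (SE 0.065) without it, a value moved by more than 1.5 times. Rnft1 had a 2-copy difference of 0.08 (SE 0.053) with the array and 0.13 (SE 0.041) without it.

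Cuedc1 differed by 0.28 log2 with 1 copy and 0.30 with 2, a difference of effects between -0.19 and 0.15 (95% interval). Brip1os differed by -0.25 with 1 copy and -0.20 with 2 (interval of the difference -0.19 to 0.10), and Dgke by -0.24 and -0.18 (-0.31 to 0.19). Tubd1 differed by 0.12 and 0.13 (-0.12 to 0.09). For Tob1 the differences were -0.13 with 1 copy and -0.32 with 2, and the interval, 0.06 to 0.32, lay above 0 (limma adjusted p = 0.772). Tob1 was between 8.95 and 9.18 in homozygous mice, against 9.34 to 9.48 in B6 controls, with no overlap. Ccdc182 differed by 0.21 with 1 copy and by -0.02 with 2 (interval of the difference 0.03 to 0.43, limma adjusted p = 0.939).

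For all genes, the test of the 1-copy against the 2-copy difference gave 0 of 19938 at an adjusted p under 0.05 by limma (0%) and 1010 (5.07%) at an unadjusted one. In the segment 4 of 132 had such an unadjusted p, namely Tob1, Ccdc182, the myosin gene Myo19 and Lrrc59. Rsad1, of the radical SAM enzyme family, differed by 0.09 with 1 copy (SE 0.052) and by 0.20 with 2 (SE 0.048). Outside the segment the smallest p values belonged to the olfactory receptor genes Olfr146, Olfr689, Olfr495, Olfr619 and Olfr460 and to Try10, a trypsinogen gene. Each of these 6 was higher in heterozygous mice than in littermates and lower in homozygous mice than in B6 controls, a pattern that choosing them by this difference favours. The 5 receptor genes were dim, with mean levels between the 4.32 and 16.6 percentiles of all genes. Olfr146, for example, differed by 0.18 log2 with 1 copy and by -0.25 with 2 (adjusted p of the difference 0.51).

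**Figure D3:**
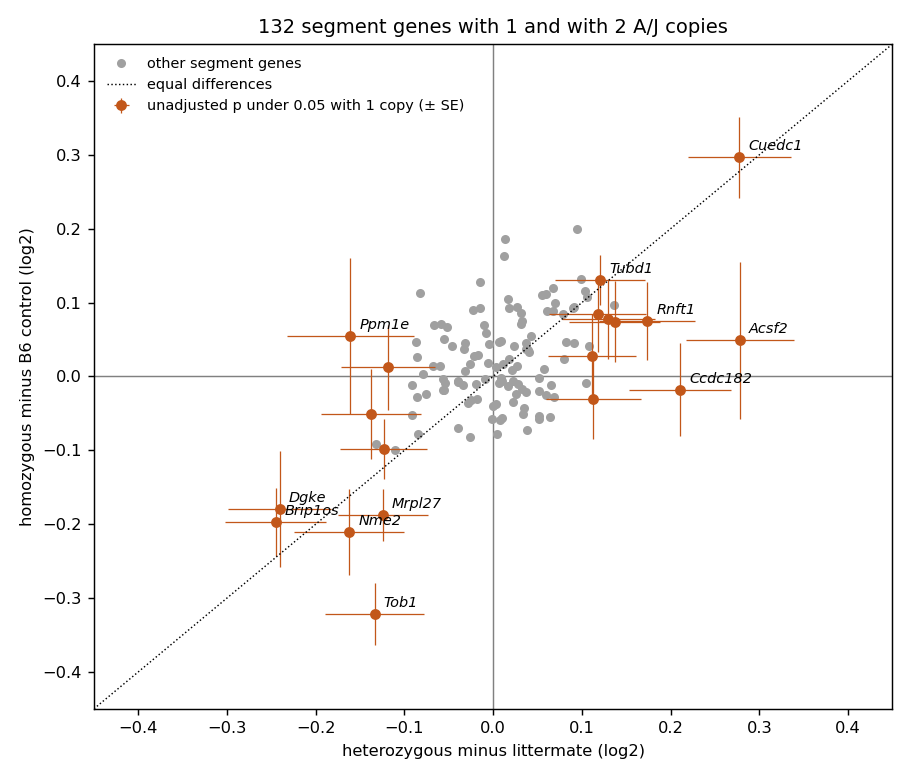
Log2 difference of the 132 segment genes with 1 copy (horizontal, heterozygous mice minus littermates) and with 2 copies (vertical, homozygous mice minus B6 controls), the 19 leading genes with SE bars and a dotted line where both are equal. Of the 19, 15 lie in the quadrants of equal sign, Cuedc1 and Tubd1 near the dotted line and Tob1 below it.

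Among genes outside the segment, the smallest p was that of Syna, which encodes syncytin A, a membrane-fusing protein of the placenta. It was at 7.45, 7.47, 7.44, 7.50, 7.46 and 7.41 log2 in heterozygous mice, against 7.20, 7.11, 7.27, 7.17, 7.18 and 7.28 in littermates. All heterozygous mice were above all littermates. The difference was 0.25 log2 (SE 0.047, 1.19-fold, limma adjusted p = 0.617), and with 2 copies it was 0.01 (SE 0.057).

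Auh, an enzyme of leucine breakdown, was at 9.14, 9.13, 9.14, 9.14, 9.12 and 9.17 log2 in heterozygous mice, against 9.36, 9.19, 9.36, 9.31, 9.49 and 9.29 in littermates. The heterozygous mice were nearly equal to each other and all below the littermates, with a difference of -0.19 (SE 0.049) and one of 0.01 with 2 copies. Nmrk1, which makes NAD precursors from nicotinamide riboside, was lower by 0.23 log2 (SE 0.056) and Tonsl, of replication fork repair, by 0.22 (SE 0.051). Zdhhc14, a palmitoyltransferase gene, was higher by 0.22 log2 (SE 0.057). Fitm2, needed to form lipid droplets, had a difference of -0.17 (SE 0.049) without overlap.

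Kcnc1, a potassium channel of fast-firing neurons, ranged from 8.84 to 9.11 log2 in heterozygous mice, against 9.07 to 9.32 in littermates. Only littermate 2 lay within the heterozygous range, and the difference was -0.22 (SE 0.056). Nefh, the heavy neurofilament protein, differed by -0.24 (SE 0.064), and the ankyrin gene Ank1 by -0.17 (SE 0.048). Cplx1, complexin 1 of synaptic vesicle release, was between 11.17 and 11.28 in heterozygous mice and between 11.30 and 11.48 in littermates, a difference of -0.12 (SE 0.047). Ank1 and Cplx1 showed no overlap. With 2 copies Kcnc1, Nefh, Ank1 and Cplx1 differed by 0.04, 0.05, 0.05 and -0.02.

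Genes of other cell types and of the neighbourhood of the striatum were then read as lists, each beside the 4.4% of all genes at an unadjusted p under 0.05 and the median of 0.002 log2 over all genes. Of 12 genes of thalamic and subcortical excitatory neurons 10 were lower in heterozygous mice, with a median of -0.07 and 1 at an unadjusted p under 0.05. This was Slc17a6, the vesicular glutamate transporter of those neurons. It was at 6.47, 6.14, 6.45, 6.26, 6.53 and 6.52 log2 in heterozygous mice, against 6.84, 6.80, 6.20, 6.63, 7.49 and 6.91 in littermates. Littermate 5 was the highest and littermate 3 among the lowest, and the difference was -0.42 (SE 0.122), or -0.30 without littermate 5. With 2 copies it was 0.13 (SE 0.109).

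Of 13 striatal interneuron genes 9 were lower, with a median of -0.05. Pvalb, the calcium buffer of fast-spiking interneurons and of pallidal neurons, was at 8.55, 9.24, 9.05, 8.67, 8.83 and 8.60 log2 in heterozygous mice, against 9.39, 8.67, 8.87, 9.58, 10.05 and 9.35 in littermates. The groups overlapped, with littermate 5 again the highest. The difference was -0.50 (SE 0.173), and -0.34 without littermate 5. Of 13 genes of septal, pallidal and hypothalamic neurons 10 were lower, with 0 at an unadjusted p under 0.05. Of 10 genes of cortical excitatory neurons 6 were higher and 4 lower, with a median of 0.03. Neurod6, at 0.23, was the 1 of these 10 (10%) at such a p. Of 16 genes shared by spiny neurons 10 were higher and 6 lower, with a median of 0.02. Gad2, which makes GABA, was the lowest of these 16 at -0.16 (SE 0.062) and the 1 at an unadjusted p under 0.05. The GABA transporter gene Slc6a11 differed by -0.23 (SE 0.099). Of 13 vesicular and plasma membrane transmitter transporter genes 4 were higher and 9 lower, with 2 (15.4%) at an unadjusted p under 0.05. Of 11 GABA-A receptor genes 4 were higher and 7 lower, between -0.18 and 0.09 with a median of -0.03. The 2 (18.2%) at such a p were Gabrg1 and Gabrb1, at -0.18 (SE 0.070) and -0.11 (SE 0.046). How much neighbouring tissue each punch held, and its part in these differences, was not tested.

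Choroid plexus genes were lower in 10 of 11 cases with a median of -0.06, and their mean was uneven among mice. It was 7.45 log2 in heterozygous mouse 2 and between 6.78 and 7.04 in the other heterozygous mice, against 7.67 in littermate 1 and 6.96 to 7.08 in the other littermates. Otx2, a transcription factor of this tissue, differed by -0.13 (SE 0.059). Genes of ependyma and motile cilia were higher in 12 of 15 cases with a median of 0.08. With 2 copies they were higher in 14 of 15 with a median of 0.08, against 12262 of 19938 and 0.016 over all genes. Dynlrb2, a dynein light chain of that list, ranged from 6.21 to 6.40 in heterozygous mice and from 6.00 to 6.20 in littermates, without overlap, a difference of 0.19 (SE 0.050). Of 10 genes of meninges and fibroblasts 8 were lower. Dcn, decorin of connective tissue, had medians of 8.42 in heterozygous mice and 8.72 in littermates and differed by -0.29 (SE 0.079), and Ptgds by -0.20 (SE 0.093).

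Values of liver genes were uneven, and those of both batches had been adjusted together by the authors. Fgg ranged from 8.33 to 8.81 log2 in heterozygous mice and from 8.00 to 8.37 in littermates. In batch 2 it ranged from 6.47 to 11.23 in B6 controls and from 7.11 to 10.01 in homozygous mice. Of 14 hepatocyte genes 8 were higher in heterozygous mice with a median of 0.02, and 4 of the 14 (28.6%) had an unadjusted p under 0.05, all 4 higher. These were Fgg at 0.29 log2 (SE 0.082), Apoh, a plasma apolipoprotein, at 0.31 (SE 0.107), Cyp2e1, a cytochrome P450, at 0.20 (SE 0.090) and Tat, which breaks down tyrosine, at 0.17 (SE 0.078). Beside them stood Hamp2, a hepcidin gene of the liver and outside that list, between 8.73 and 9.30 in heterozygous mice and between 8.33 and 9.05 in littermates. Hamp2 differed by 0.36 log2 (SE 0.083). The mean of the hepatocyte list was 8.53 ± 0.18 in heterozygous mice and 8.51 ± 0.10 in littermates (SD, n = 6 each). Heterozygous mouse 2 was the highest at 8.83, as it was among heterozygous mice for the choroid plexus list. Littermate 1, the highest for choroid plexus, was at 8.56 here, within the littermates' 8.32 to 8.57. The lowest member stood at -0.69 log2 in both lists, the lowest of all genes tested, so the lists share a gene. The part of liver or choroid plexus RNA in these differences was not tested.

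**Figure D4:**
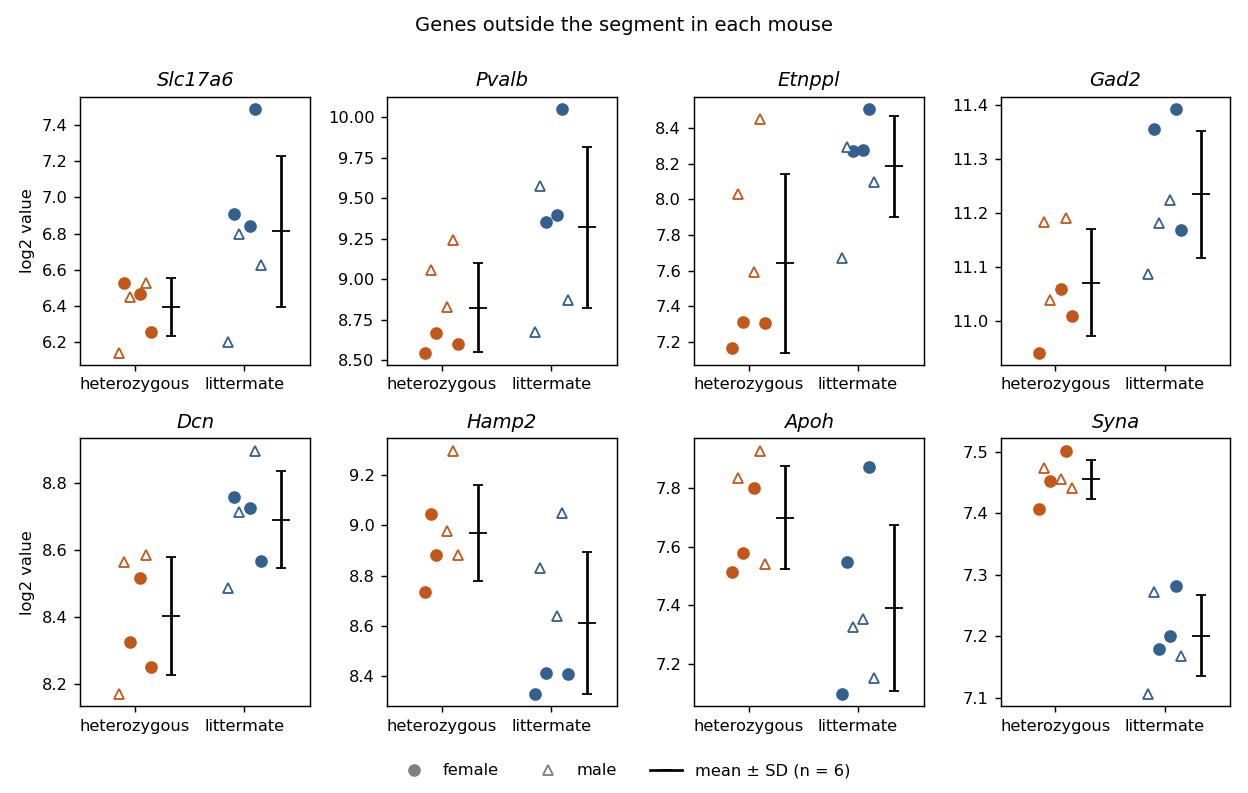
Log2 values of 8 genes outside the segment in each heterozygous mouse (left in each panel) and each littermate (right), females as filled circles and males as open triangles, with mean and SD and a separate vertical scale per gene. Syna shows no overlap, and for Slc17a6, Pvalb and Etnppl the female littermates lie above the female heterozygous mice.

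The dopamine genes of the striatum differed little. Of 19 genes of dopamine signalling 9 were higher and 10 lower, with 0 at an unadjusted p under 0.05 by limma. Drd1, the D1 receptor, was at a median of 10.75 log2 in heterozygous mice and 10.67 in littermates, a difference of 0.06 (95% interval -0.05 to 0.17). Drd2, the D2 receptor, differed by 0.03 (-0.08 to 0.13). The dopamine transporter gene Slc6a3, Th, which makes the dopamine precursor, and Ppp1r1b, which encodes DARPP-32, differed by -0.006, -0.07 and -0.002. Drd3, the D3 receptor, had the smallest p of the list, at -0.17 (SE 0.082). Direct-pathway spiny neuron genes had a median of 0.01 (6 of 9 higher) and indirect-pathway genes one of 0.04 (5 of 7 higher).

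Of 78 oxidative phosphorylation subunits 56 were lower with a median of -0.03, and 0 had an unadjusted p under 0.05. Of 74 mitochondrial ribosomal proteins 59 were lower with a median of -0.03, and 3 had such a p, all 3 lower. These were Mrps23 and Mrpl27 of the segment and Mrpl22, elsewhere on chromosome 11, between 7.36 and 7.50 log2 in heterozygous mice and between 7.52 and 7.85 in littermates, without overlap. Mrpl22 differed by -0.20 (SE 0.058). The means of these 2 lists, 10.22 and 8.74 in heterozygous mice, lay in the brighter part of all genes. Among genes above the median level, 140 were higher and 249 lower at an unadjusted p under 0.05. Of 61 cytosolic ribosomal proteins 35 were lower, and 3 had such a p, 1 higher and 2 lower. Cholesterol synthesis genes were higher in 13 of 14 cases with a median of 0.03. With 2 copies they were higher in 5 of 14, against 12262 of 19938 over all genes. Among response genes, Nr4a3, an immediate early gene, differed by 0.30 (SE 0.117) and Sgk1, a kinase induced by glucocorticoids, by -0.21 (SE 0.073). The immediate early list as a whole was split into 9 higher and 9 lower, with 1 of 18 at an unadjusted p under 0.05. The glucocorticoid-responsive list was split into 6 higher and 8 lower, with 1 of 14 at such a p. Of 8 genes of oligodendrocyte precursors 3 were higher and 5 lower, with a median of -0.03. Vcan, a matrix proteoglycan and the 1 member of that list at an unadjusted p under 0.05, went against this median at 0.18 (SE 0.058). Of 12 astrocyte genes 4 were higher and 8 lower, with a median of -0.009, and Gjb6, a connexin, was the 1 at such a p, at -0.16 (SE 0.066).

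**Figure D5:**
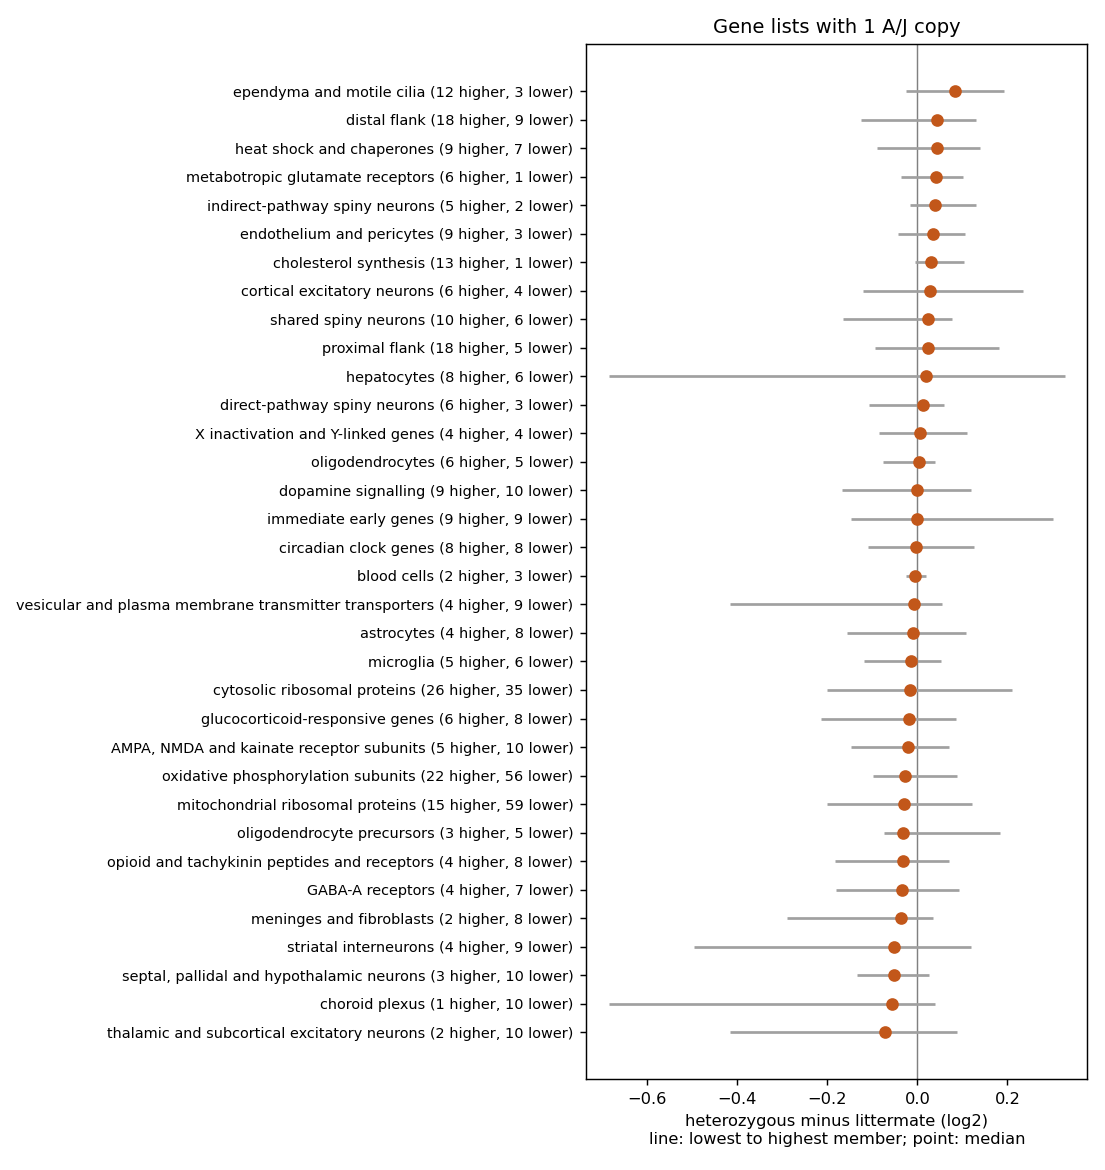
Differences between heterozygous mice and littermates in log2 for 34 gene lists, the line from the lowest to the highest member and the point at the median, with the number of members higher and lower in heterozygous mice. Medians lie between -0.07 for thalamic and subcortical neurons and 0.08 for ependyma.

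Whether 1 copy went with the same difference in females and males was tested as an interaction, with 3 mice in each cell. By limma 0 of 19938 genes had an adjusted p under 0.05 (0%), and 1240 (6.22%) an unadjusted one. In the segment 6 of 132 (4.55%) had such a p, namely Gip, Stxbp4, Gm11545, 2210409E12Rik, Med13 and Nme1, none of them among the 19 leading genes. Stxbp4 differed by -0.20 in females and 0.22 in males. The 19 leading genes had the same sign in both sexes, which their choice favours.

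Outside the segment, Etnppl, an astrocyte enzyme that breaks down phosphoethanolamine, differed by -1.09 log2 in females and 0.00 in males (SE of the interaction 0.23, adjusted p = 0.478). Its values in females were 7.17, 7.30 and 7.31 in heterozygous mice 1, 4 and 6, against 8.27, 8.51 and 8.28 in littermates 1, 5 and 6. In males they were 8.45, 8.03 and 7.59 in heterozygous mice, against 8.10, 7.67 and 8.29 in littermates. Females were apart by genotype and males were not, a pattern that choosing the gene by its interaction p favours. Pvalb differed by -0.99 in females and 0.00 in males (adjusted p = 0.65), Slc6a11 by -0.53 and 0.07 (adjusted p = 0.574) and Slc17a6 by -0.66 and -0.17 (adjusted p = 0.793). The smallest p belonged to Mrpl42, at -0.38 in females and 0.18 in males (adjusted p = 0.456).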

How the data were processed

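RNA of striatal punches was measured on Mouse Gene 1.0 ST arrays. The authors summarised probes by RMA in Affymetrix Expression Console, with no version named in the submitters' processing notes, and deposited log2 values, 1 per transcript cluster. Probes over coding variants (145 probes of 120 probesets, build 37) were masked with a kill list and the 2 batches adjusted with ComBat, per the deposited notes. That adjustment used all 28 arrays and so ties the 12 arrays to the rest.

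Of 35556 clusters 21789 had 1 symbol, 1621 several and 12146 none. Each gene took its brightest single-symbol cluster, 19938 in all, of which 19919 had a position. The segment was taken by gene order from Acaca to Calcoco2 on GRCm38.p6, with 50 reference genes on each side as flanks. Genes were tested with limma 3.58.1 in R 4.3.3 (lmFit and eBayes, 2-sided, Benjamini-Hochberg over all genes, threshold 0.05), with sex as a term. The difference of effects came from a model of 4 group means and sex. Precision is limited by the number of arrays. Scripts were tested on simulated data. The alternatives were sex, replicate number, age, arrays in the fit, normalization, filter, cluster rule, variance prior, masked clusters, the methods' t-test and leaving out each mouse.

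The rule named the 15 segment and 12 other genes of smallest p, up to 10 bright genes without overlap outside the segment, up to 4 members per list, 19 fixed genes, and up to 6 each by sex and by copy number. The genes, the 36 lists and the rules were chosen with earlier results of these data known.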

Additional observations from a re-analysis of the deposited data

Results flagged for a closer look

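In 11 of 214 sets of 6 values, 1 mouse lay far from the other 5 (Dixon's criterion at 95%), and chance gives about 1 in 20. Littermate 5 was the highest for Tmem60, a transmembrane protein gene, at 8.54 log2 against 8.37 to 8.42 in the other littermates. It was also the highest for Dhx58, an antiviral RNA sensor, at 6.51 against 6.35 to 6.40, and the lowest for Rsad1 at 8.07 against 8.26 to 8.32. Littermate 6 was the lowest for the tRNA methyltransferase gene Trmt61a at 8.37 against 8.54 to 8.60, and the highest for Cops4, of the COP9 signalosome, at 10.20 against 10.03 to 10.06. Littermate 3 was the lowest for the glutamate receptor gene Grin3a at 8.19 against 8.54 to 8.70 and for Hoxb13 at 6.83 against 7.00 to 7.09. Littermate 4 was the highest for Wfdc18 at 6.81 against 6.50 to 6.56 and for Slc6a3 at 7.51 against 7.17 to 7.30. Heterozygous mouse 3 was the highest for Drd3 at 7.76 against 7.36 to 7.46, and heterozygous mouse 6 for Fgg at 8.81 against 8.33 to 8.41 in the other heterozygous mice. Leaving out littermate 5 gave 0 genes at an adjusted p under 0.05 by limma, 774 at an unadjusted p under 0.05 and 18 in the segment.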

How the results depend on the processing

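The count of 0 genes at an adjusted p under 0.05 held under all alternatives to the comparison of heterozygous mice with littermates except without littermate 3, where Myl4, a myosin light chain gene, alone passed (adjusted p = 0.0111). Leave-one-out values ranged from 731 to 1228 for genes at an unadjusted p under 0.05, from 13 to 20 for those in the segment, from 56 to 102 for genes without overlap (5 values against 6 overlap less readily) and from 2 to 4 for such genes in the segment, 4 without littermate 2. With only the 9969 genes above the median level, 389 genes (140 higher, 249 lower) and 11 of 68 in the segment had an unadjusted p under 0.05, and 9 and 0 had no overlap, fewer genes being tested. The methods' t-test gave 841 genes at an unadjusted p under 0.05, 18 in the segment, and 0 after Benjamini-Hochberg. Quantile normalization again gave 868, and age as a block 860 with 22 in the segment. All 69 named genes at an unadjusted p under 0.05 kept their sign under every alternative run, and 31 kept such a p. Among the 15 in the segment these were 7, namely Cuedc1, Acsf2, Brip1os, Dgke, Ccdc182, Rnft1 and Ankrd40.

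By sex, 3 genes passed without littermate 4 and 0 otherwise (0 to 3). For 1 against 2 copies, 1 gene, Olfr495, passed with a replicate block, and 0 under the other alternatives. With the replicate block, heterozygous mice and littermates gave 0 genes at an adjusted p under 0.05, 929 at an unadjusted one and 18 in the segment. The titles share numbers, but same-numbered mice correlated above 0.1 in only 3 of 6 pairs, with values between -0.07 and 0.17, and 2 of 6 heterozygous mice correlated best with their own number, so the numbers were not taken as pairs. Leaving out B6 control 1 was added after seeing the data.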
